A study of Mus musculus with 8 samples.

Results

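The regions described here are the H3K27ac peaks of wt P5424 cells that lacked a counterpart in ΔIkE120 P5424 cells. A wt peak was counted as wt-only when it had no base within 1 kb of any ΔIkE120 peak, in coordinates of GRCm38. This rule took 6706 of 34553 wt peaks, or 19.4% (exact 95% binomial interval 19.0% to 19.8%). Members were chosen by the measured peak positions in both libraries, so their number, and any measure of H3K27ac at them, is given as a description without a test. Acetylation of lysine 27 of histone H3 is placed on nucleosomes around active enhancers and promoters by the acetyltransferases CBP and p300. Enhancers carrying the mark lie mostly within introns and between genes, and they differ between cell types far more than promoters do. In T cell precursors such elements control the genes of T lineage commitment, of the pre-TCR and of the antigen receptor loci.

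P5424 is a mouse cell line that resembles T cell precursors. The study compared wt cells with a derivative in which CRISPR/Cas9 had removed IkE120, an enhancer upstream of *Ikzf1*, from both alleles. *Ikzf1* encodes Ikaros, a zinc finger transcription factor of lymphoid cells. The ΔIkE120 cells came from a single clone grown after limiting dilution, and each genotype had 1 H3K27ac ChIP-seq library. The labels used here do not state whether the ChIP-seq cells had been stimulated. No replicate was available, and the effect of the deletion, of the clone and of the library cannot be told apart. The analysis rests on called peaks alone, so the sequencing depth is unknown and a missing peak means that none was called. All intervals are exact binomial (Clopper-Pearson) intervals and cover counting error only.

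Cell identity was checked at gene starts. All 15 markers of T precursors, among them *Cd3e*, *Ptcra*, *Rag1*, *Bcl11b* and *Tcf7*, had a peak within 1 kb of a start in wt cells, and all 15 had one in ΔIkE120 cells. Of 12 B lineage markers, *Ebf1* and *Igll1* had a wt peak at the start, and *Ebf1* alone had one in ΔIkE120 cells. The wt peak at the start of *Igll1*, which encodes a chain of the surrogate light chain, was wt-only. Peaks at the start were found in wt cells for 4 of 12 myeloid and progenitor markers (*Cd14*, *Kit*, *Mpo* and *Spi1*), 2 of 7 erythroid, 1 of 8 NK and innate lymphoid and 1 of 8 stromal markers. In ΔIkE120 cells these counts were 3, 2, 1 and 1, with *Mpo* the myeloid gene that lacked one. *Cd79a*, *Csf1r*, *Itgam*, *Gata1* and *Ncr1* had no peak at the start in wt cells.

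The reverse set was smaller. Of 29902 ΔIkE120 peaks, 2651 had no base within 1 kb of a wt peak, or 8.87% (8.55% to 9.19%). The size of this difference depended on which peaks were compared. When the 29902 wt peaks with the highest -log10 q were set against the ΔIkE120 list, 4124 wt peaks and 3774 ΔIkE120 peaks lacked a counterpart. With each list restricted to the peaks at or above its own median -log10 q, the numbers were 2947 of 17277 in wt and 908 of 14951 in ΔIkE120 cells. These medians were 4.12 in wt and 4.47 in ΔIkE120 cells. The limit was thus stricter for the ΔIkE120 list, and the numbers are not matched in strength.

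Wt-only peaks were short and weak. Their median length was 318 bp (interquartile range 249 to 428 bp, longest 1708 bp), against 731 bp (438 to 1114 bp) for the other 27847 wt peaks. Together they covered 2.45 Mb, or 9.72% of the bases in wt peaks. The -log10 q given by the authors' peak caller had a median of 2.12 (1.68 to 2.76, highest 14.7), against 5.29 (3.00 to 10.5) for the other wt peaks. Fold enrichment differed less, with medians of 2.86 and 3.13. The ΔIkE120-only peaks had nearly the same profile, with a median length of 292 bp, a fold enrichment of 2.88 and a -log10 q of 2.01. Short length and low strength were therefore shared by unmatched peaks in both directions.

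Membership fell steeply along the list. The wt peaks were sorted by -log10 q into 10 groups of equal size. In group 1, the weakest, 56.8% (55.1% to 58.4%) were wt-only. The share was 46.1% in group 2, 27.9% in group 4, 6.95% in group 6 and 2.17% in group 7. Groups 8 and 9 held 7 and 3 members, and the strongest group had 0 of 3456, with an upper limit of 0.107%. Below the median -log10 q of 4.12 lay 6381 members, and 325 lay at or above it. A -log10 q over 5 was reached by 129 members, and one over 10 by 4.

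The wt-only peaks lay a median of 13.9 kb from the nearest ΔIkE120 peak (interquartile range 6.61 to 30.5 kb). A gap of 50 kb or more separated 944 of them (14.1%) from any ΔIkE120 peak, while 1130 lay within 5 kb of one. Of the wt peaks that were not members, 25721 shared a base with a ΔIkE120 peak and 2126 lay less than 1 kb away. The 5 members nearest to the limit had gaps of 1000 bp near *Slc22a12*, 1003 bp in *Abl2*, 1004 bp in *Cmah*, 1005 bp in *Ak4* and 1007 bp in *Rpap2*. Their -log10 q ranged from 1.46 to 2.28. Just outside the limit, at 994 to 999 bp, were wt peaks in *Prex1*, *Cic*, *Erg* and *Tbc1d22a* and near *Cyp1b1*, with a -log10 q of 1.57 to 4.80.

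Few members marked promoters, although their share depended on the peaks compared. Within 1 kb of a protein-coding gene start lay 240 of 6706 wt-only peaks, or 3.58% (3.15% to 4.05%), against 39.3% (38.7% to 39.9%) of the other wt peaks. A start was covered by 67 members (0.999%) and by 7054 other wt peaks (25.3%). The median distance to a start was 28.1 kb (interquartile range 11.3 to 69.5 kb) for members and 7.73 kb for the other wt peaks. More than 50 kb from any start lay 2271 members, or 33.9%, against 19.5% of the other wt peaks. Away from starts, 3580 members (53.4%) lay in a gene body and 2886 (43.0%) between genes, while these shares were 33.6% and 27.2% for the other wt peaks. The share within 1 kb of a start was 12.3% with the wt list restricted to peaks at or above its median -log10 q, and 12.7% with both lists so restricted. Of the 17277 wt peaks at or above the median, 6802 covered a start, against 7121 of all 34553 wt peaks. The 12.3% and 12.7% are therefore not to be set against the 39.3% found in the whole list. Members were thus placed mainly in introns or exons far from the start and in intergenic DNA. The ΔIkE120-only peaks lay at similar distances, with 4.26% (3.53% to 5.10%) within 1 kb of a start and a median distance of 27 kb. More of them than of the members lay in a gene body away from starts, 57.1% (55.2% to 59.0%). Fewer lay between genes, 38.6% (36.7% to 40.5%).

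The position of members was also compared within the weaker and the stronger peaks, since peaks at starts were stronger. This matches strength only in part. Peaks covering a start had a median -log10 q of 12.9, and those over 50 kb away one of 2.90. Among wt peaks below the median -log10 q, 15.7% (11.9% to 20.1%) of 319 peaks covering a start were wt-only, and 11.3% (9.63% to 13.1%) of 1330 peaks within 1 kb of one. In the same weaker range the share was 37.7% from 1 to 10 kb, 40.0% from 10 to 50 kb and 40.0% over 50 kb away. Weaker peaks covering a start still had a higher median -log10 q, 3.06 against 2.37 beyond 50 kb, and were longer, 614 against 378 bp. The rule also leaves out a wt peak beside a ΔIkE120 peak that does not overlap it, and with a flank of 0 bp the share of members at starts was 6.42%. Whether position matters apart from strength and the flank was not tested. Among the stronger peaks the shares were 0.250% over a start, 0.843% within 1 kb and 4.19% beyond 50 kb.

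The strongest members were scattered over the genome. The highest -log10 q, 14.7, belonged to a peak of 1125 bp on chromosome 5 from 138193730 to 138194854 with a fold enrichment of 5.02. It covered the start of *Mblac1*, a histone pre-mRNA processing nuclease, and lay 5.80 kb from the nearest ΔIkE120 peak. The next, at 13 with a fold enrichment of 6.33, was intergenic on chromosome 4 from 8647046 to 8647556, 42.8 kb from the start of *Chd7*, a chromatin remodeller. A peak on chromosome 12 from 85455483 to 85456041 reached 11.7 and lay 17.8 kb from the start of *Fos*, an immediate early gene of the AP-1 family. The next in order lay in *Plekhm3* on chromosome 1, with a -log10 q of 10.1. At *Gbp4*, an interferon-induced GTPase, a peak with a -log10 q of 8.74 lay 0.171 kb from the start. The remaining 5 of the strongest 10 had values of 7.39 to 8.26. They lay in *Slc4a5*, near *Scn11a*, and 390 kb, 263 kb and 66.7 kb from the nearest starts, those of *Sox9*, *Stmn2* and *Aldh8a1*. Of the 10 strongest members, 2 were within 1 kb of a start.

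A wt-only peak lay within 1 kb of a start in 230 of 21536 protein-coding genes, or 1.07%, while 10043 genes had a wt peak there. For 29 of the 230 genes a ΔIkE120 peak was also found within 1 kb of a start, and the remainder had none. *Tox*, a nuclear factor of thymocyte differentiation, was the T lineage transcription factor with a wt-only peak at the start, on chromosome 4 from 6990740 to 6991106 with a -log10 q of 5.10. The nearest ΔIkE120 peak was 87.9 kb away. Members covering a start included those of *Blk* (-log10 q of 7.27), *Dusp23* (7.21), *Gsdmd* (6.97), *Gimap1* (6.26), *Saysd1* (5.82), *Usp6nl* (5.47) and *Il18rap* (5.27). Whether any function was common among the 67 members covering a start was not tested. *Blk* encodes a Src family kinase of B cells, *Gimap1* a GTPase needed by lymphocytes, *Il18rap* a subunit of the IL-18 receptor and *Gsdmd* the pore-forming protein of pyroptosis. The genes of this paragraph were chosen after their values had been seen.

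Promoter sequence was examined in the RefSeq promoter table of GRCm38.p6, which gives 300 bases per start, from 250 before it to 50 after it. Of 21263 promoters of protein-coding genes in this table, 99 were touched by wt-only peaks alone, 8854 by other wt peaks and 12310 by no wt peak. Promoters with wt-only peaks were poorer in CpG dinucleotides, with a median of 7 per promoter (interquartile range 4 to 18) against 23 (16 to 31) at other wt peaks and 5 (2 to 13) without a wt peak. Their median GC content was 54.7%, against 62.3% and 51.0%. At most 5 CpG dinucleotides were present in 38.4% of the 99 promoters and in 3.60% of those with other wt peaks. In base composition they therefore lay between the usual acetylated promoter and the unmarked one, and nearer to the latter in CpG content.

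A set of 7 short motifs was then searched on both strands. The ETS word ACAGGAA was present in 18.2% (11.1% to 27.2%) of the 99 promoters, against 7.21% (6.68% to 7.76%) of those with other wt peaks, 8.39% of those without a wt peak and 7.94% of all. The RUNX word TGTGGT was found in 23.2% (15.3% to 32.8%), against 11.4%, 17.5% and 15.0%. For the words other than ETS, the interval at wt-only peaks included the share of promoters without a wt peak. TCAAAG, bound by TCF1 and LEF1, was present in 21.2% of the 99 promoters, against 10.8% at other wt peaks and 17.0% without a wt peak. These shares were 58.6%, 40.4% and 54.4% for the E-box CANCTG, 11.1%, 3.58% and 9.41% for the AP-1 word TGANTCA, and 8.08%, 5.23% and 12.8% for the GATA word AGATAA. The core of Ikaros sites, spelled TGGGAA, was in 26.3% (17.9% to 36.1%) of the promoters with wt-only peaks, 21.4% (20.6% to 22.3%) of those with other wt peaks and 26.7% of those without a wt peak. Whether base composition accounts for these shares was not tested, and a match describes letters and not a bound site.

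The promoters below are those of the strongest member and of 5 genes with roles in blood cells, picked after the values had been seen. They are given 5′ to 3′ on the strand of the gene, with matches to any of the 7 motifs in capitals. *Mblac1*, *Gimap1*, *Il18rap* and *Mpo* lie on the plus strand, *Pik3cd* and *Stat5b* on the minus strand. *Pik3cd* encodes the leukocyte catalytic subunit of PI3-kinase, *Mpo* the myeloperoxidase of granulocytes and *Stat5b* a transcription factor downstream of cytokine receptors. For *Stat5b* and *Pik3cd* the table lists further starts. The *Stat5b* start shown lies inside the gene body, and a ΔIkE120 peak was called within 1 kb of a start of this gene. The member at *Stat5b* had a fold enrichment of 1.70 and lay 1.53 kb from the nearest ΔIkE120 peak.
*Mblac1* chr5:138194064-138194363: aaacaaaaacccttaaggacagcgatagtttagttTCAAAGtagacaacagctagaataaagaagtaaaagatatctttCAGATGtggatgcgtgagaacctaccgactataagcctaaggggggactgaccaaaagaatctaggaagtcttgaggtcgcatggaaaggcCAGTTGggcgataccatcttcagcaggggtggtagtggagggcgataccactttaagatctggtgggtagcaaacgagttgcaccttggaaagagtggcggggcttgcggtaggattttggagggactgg
*Gimap1* chr6:48738797-48739096: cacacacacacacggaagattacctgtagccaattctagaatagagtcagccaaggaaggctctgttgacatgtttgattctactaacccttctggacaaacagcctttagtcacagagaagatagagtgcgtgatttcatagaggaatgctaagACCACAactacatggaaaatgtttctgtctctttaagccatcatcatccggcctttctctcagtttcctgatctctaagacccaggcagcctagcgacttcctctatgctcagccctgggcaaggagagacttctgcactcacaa
*Il18rap* chr1:40515112-40515411: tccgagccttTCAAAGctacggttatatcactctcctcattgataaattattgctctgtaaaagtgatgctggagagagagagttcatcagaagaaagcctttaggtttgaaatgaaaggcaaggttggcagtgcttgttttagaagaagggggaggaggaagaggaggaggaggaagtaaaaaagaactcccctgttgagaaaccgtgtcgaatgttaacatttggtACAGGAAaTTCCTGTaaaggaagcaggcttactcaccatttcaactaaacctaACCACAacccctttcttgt
*Pik3cd* chr4:149698659-149698958: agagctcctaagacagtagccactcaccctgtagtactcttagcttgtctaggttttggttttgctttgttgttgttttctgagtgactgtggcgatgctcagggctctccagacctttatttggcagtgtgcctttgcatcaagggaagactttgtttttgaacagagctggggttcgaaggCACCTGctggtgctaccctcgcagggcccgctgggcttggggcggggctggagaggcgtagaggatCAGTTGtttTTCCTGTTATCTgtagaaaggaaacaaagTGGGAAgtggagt
*Mpo* chr11:87793534-87793833: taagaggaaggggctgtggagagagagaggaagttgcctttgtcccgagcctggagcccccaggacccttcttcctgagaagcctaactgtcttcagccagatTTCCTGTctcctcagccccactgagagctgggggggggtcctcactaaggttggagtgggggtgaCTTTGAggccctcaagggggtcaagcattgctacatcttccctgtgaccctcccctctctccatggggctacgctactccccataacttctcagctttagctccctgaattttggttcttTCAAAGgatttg
*Stat5b* chr11:100822521-100822820: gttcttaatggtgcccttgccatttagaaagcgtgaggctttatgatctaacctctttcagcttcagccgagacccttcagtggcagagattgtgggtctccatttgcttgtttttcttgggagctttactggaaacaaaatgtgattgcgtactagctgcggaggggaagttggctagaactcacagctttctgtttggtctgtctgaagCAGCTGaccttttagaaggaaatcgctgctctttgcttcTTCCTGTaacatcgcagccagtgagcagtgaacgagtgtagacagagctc
The peak covered all 300 bases of the *Mblac1* and *Mpo* promoters, and 147, 88, 117 and 221 bases of those of *Gimap1*, *Il18rap*, *Pik3cd* and *Stat5b*. Their -log10 q was 14.7 at *Mblac1*, 6.26 at *Gimap1*, 5.27 at *Il18rap*, 2.69 at *Pik3cd*, 2.08 at *Mpo* and 2.07 at *Stat5b*. CpG dinucleotides numbered 9 at *Mblac1* and 2 to 7 in the others. The ETS word was present at *Il18rap*, *Pik3cd*, *Mpo* and *Stat5b*. At *Il18rap* it occurred in both orientations side by side, and at *Pik3cd* it shared a base with the GATA word. The RUNX word was present at *Gimap1* and *Il18rap*, and the Ikaros word at *Pik3cd* alone among the 6.

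Members were found on all autosomes and on chromosome X. No wt peak was listed on chromosome Y, and 0 of 3 mitochondrial wt peaks qualified. The share of wt peaks that were wt-only was highest on chromosome 14, at 25.9% (23.7% to 28.2%; 392 of 1512), followed by chromosome 15 at 23.8% (21.8% to 25.9%; 414 of 1740) and chromosome 3 at 22.2% (20.3% to 24.2%). It was lowest on chromosome X, at 9.11% (6.93% to 11.7%; 55 of 604). Chromosomes 4, 5, 8 and 10 were at 16.2%, 16%, 16% and 16%, and chromosome 11, which carries *Ikzf1*, at 20.2% (18.8% to 21.6%). Chromosomes 14 and 15 at the upper end and X at the lower end kept their places in each range of strength, while chromosome 3 did not. Among wt peaks below the median -log10 q, 45.0% were wt-only on chromosome 14, 43.2% on 15 and 20.2% on X, and among those at or above it 3.72%, 3.31% and 0.867%. The ratio of ΔIkE120 to wt peaks was also lowest on chromosomes 14 and 15, at 0.790 and 0.830, and highest among the autosomes on chromosome 4, at 0.938, with X at 0.934. ΔIkE120-only peaks had their highest nuclear share on chromosome 4, at 12.8%, with 8.12% on chromosome 14. Their lowest share, 5.50%, was on chromosome X, so that the low end was the same in both directions. DNA copy number per chromosome was not measured in either library.

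Along the chromosomes, members were spread broadly. They occurred in 1428 of the 1866 bins of 1 Mb that held a wt peak, with a median of 3 per bin, and 157 bins held 10 or more. Among 1133 bins with at least 10 wt peaks, the median share of wt-only peaks was 19.1% (interquartile range 12.5% to 26.5%), 44 bins held none, and in 13 bins at least 50% of the wt peaks were wt-only. The largest number, 20, was reached on chromosome 11 from 116000001 to 117000000 (of 72 wt peaks) and on chromosome 19 from 46000001 to 47000000 (of 76). The first of these surrounds *Rnf157*, *Prcd* and *St6galnac2*, the second *Cnnm2*, *Gbf1* and *Sufu*, a repressor of Hedgehog signalling. Bins with 19 members lay on chromosome 11 from 119000001 around *Rptor* and *Rnf213* (of 57) and on chromosome 2 from 32000001 around *Fam102a*, *Golga2* and *Eng* (of 69), and one with 18 on chromosome 7 from 114000001 around *Rras2* (of 53). In these bins the share was 26.3% to 34.0%, so that they were rich in wt peaks of both kinds.

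The highest shares came from bins with few wt peaks. On chromosome 17 from 13000001 to 14000000, 8 of 11 wt peaks (72.7%) were wt-only. None of the 8 lay within 10 kb of a protein-coding gene, in a bin that holds *Sod2*, *Unc93a* and *Afdn*. On chromosome 7, 8 of 13 (61.5%) were wt-only from 111000001, with 2 of the 8 at *Galnt18*. In this bin 4 of 9 ΔIkE120 peaks were unmatched as well, against 8.87% of all ΔIkE120 peaks. On the same chromosome 6 of 10 (60%) were wt-only from 89000001, with 5 of the 6 at *Tmem135*. Shares of 54.5% (6 of 11) were found on chromosome 13 from 31000001 and on chromosome 15 from 7000001. The first is the bin of the forkhead genes *Foxq1*, *Foxf2* and *Foxc1*, with 1 of the 6 at *Foxf2*. In the second, 5 of the 6 were at *Wdr70*. These shares rest on 10 to 13 wt peaks per bin, and the bins were selected on the share itself.

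The spacing of members was described by the gap to the nearest other member. Another wt-only peak lay within 10 kb of 1538 members, or 22.9% (21.9% to 24.0%), and the median gap was 39.6 kb. These values were 64.3% and 5.55 kb for the gap from any wt peak to the next nearest wt peak, and 10.6% and 104 kb for ΔIkE120-only peaks. The sets differ in number, which by itself sets much of the spacing, so these values do not compare clustering. Merging wt peaks within 1 kb before the rule was applied lowered the share of members with a close neighbour to 13.2%. When the next wt peak along the chromosome lay within 10 kb, it was wt-only in 38.0% (35.9% to 40.1%) of 2071 cases after a member and in 10.3% (9.77% to 10.9%) of 12243 cases after another wt peak. From 10 to 50 kb the shares were 25.4% and 21.5%, and over 200 kb 29.3% (24.7% to 34.2%) and 21.3% (19.1% to 23.6%). Among pairs in which both peaks were below the median -log10 q, the next peak within 10 kb was wt-only in 57.9% (55.1% to 60.7%) of cases after a member and in 18.0% (16.6% to 19.5%) after another peak. Beyond 10 kb these shares were 46.0% and 43.5%. Members thus adjoined members most clearly at short range. Under the rule, wt peaks that lie close together can be matched by the same ΔIkE120 peak, so near neighbours are not independent.

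Unbroken series of members were mostly short: 3316 runs held 1 member, 973 held 2, 289 held 3, 89 held 4, 23 held 5, 13 held 6 and 4 held 7 without an intervening matched peak. One of the longest runs, of 110 kb on chromosome 16, spanned *Sim2*, a transcription factor of the bHLH-PAS family, and *Hlcs*. Another, of 142 kb on chromosome 14 from 52720588 to 52862890, lay among the V segments of the T cell receptor alpha locus, from *Trav6d-3* to *Trav14d-1*. A run of 193 kb on chromosome 1 extended over *Relch* and *Tnfrsf11a*, the gene of the receptor RANK, and the last covered 229 kb of chromosome 15 at *Wdr70*.

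The antigen receptor loci were therefore examined, as a set chosen after this run had been seen. From the first to the last segment of the alpha and delta locus, on chromosome 14 from 52427967 to 54224198, 112 wt peaks were called and 29 were wt-only (25.9%, 18.1% to 35.0%), the same share as on the whole of chromosome 14. ΔIkE120 cells had 84 peaks there, 2 of them unmatched in wt. The unmatched share was 8.12% of ΔIkE120 peaks on chromosome 14 and 8.87% of all ΔIkE120 peaks. Over the alpha V segments 22 of 78 wt peaks were wt-only, and over the J segments 4 of 10. A wt peak lay within 1 kb of 46 of 130 V alpha segments and a ΔIkE120 peak within 1 kb of 35. The beta locus on chromosome 6 differed in its counts, with 17 wt peaks, 2 of them wt-only, and 19 ΔIkE120 peaks. In the immunoglobulin heavy chain locus on chromosome 12, 9 of 21 wt peaks were wt-only (42.9%, 21.8% to 66.0%), against 12 ΔIkE120 peaks. Of the 21, 16 were below the median -log10 q, and 8 of these were wt-only (50%), against 36.9% of all weaker wt peaks. The kappa locus held 3 members among 4 wt peaks and the gamma locus of the T cell receptor its single wt peak. No wt peak was found in the lambda locus. For comparison, 19.4% of all wt peaks were wt-only, with 19.3% on chromosome 6 (beta and kappa), 20.3% on 12 and 20.2% on 13 (gamma). Counts in the loci other than alpha and delta were too small for their intervals to be narrow.

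Gene bodies with 10 kb on either side contained 4701 of the 6706 members, and 2005 lay in no such window of a protein-coding gene. At least 1 member was found at 3742 of 21887 protein-coding genes (17.1%), and 3 or more at 401 (1.83%). Of the latter, 228 had 3 members, 88 had 4 and 85 had 5 or more. Because neighbouring genes share peaks, the 401 genes formed 392 separate loci with 1528 members, 22.8% of all. They were long genes, with a median length of 162 kb (interquartile range 80.2 to 292 kb), against 30.8 kb for the 5559 genes with 3 or more wt peaks of any kind. Their windows held a median of 9 wt peaks, and a median of 42.9% of these were wt-only. The count rose with the number of wt peaks: 3 or more members were found at 1.97% of genes with 3 to 5 wt peaks, 17.4% with 6 to 10, 53.6% with 11 to 20 and all 21 genes with more than 20. In the other direction, 87 genes had 3 or more ΔIkE120-only peaks, and 31 genes belonged to both groups.

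Few of the 401 genes lacked a ΔIkE120 peak at a start that was marked in wt cells. A wt peak lay within 1 kb of a start in 280 of them and a ΔIkE120 peak in 263, and in 21 a wt peak was present there without one in ΔIkE120 cells. The members were weak, as in the whole set. With the wt list restricted to the peaks at or above its median -log10 q, 0 genes had 3 or more members. With the same number of top peaks from each list, 141 did. With both lists at or above their medians 93 did, and 32 of the 401 were kept.

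The largest numbers belonged to very long genes. *Hivep3*, which encodes a large zinc finger transcription factor, had 11 members among 32 wt peaks, against 25 ΔIkE120 peaks. The members lay on chromosome 4 between 119812410 and 120037766, interspersed with matched peaks, and 4 of the ΔIkE120 peaks were unmatched as well. *Celf2*, an RNA-binding regulator of splicing, had 10 among 22, against 11 ΔIkE120 peaks, none of them unmatched. *Ptprn2* (9 of 16), *Pde10a* (9 of 25) and *Clec16a* (9 of 34) followed. Then came 5 genes with 8 members. These were *Lrba*, a factor of vesicle traffic that protects CTLA4 from degradation (8 of 13), *Prkca*, a protein kinase C (8 of 17), *Hecw2* (8 of 19), *Tln2*, a talin (8 of 17), and *Atp8a2*, a phospholipid flippase (8 of 9).

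The genes with 7 or 6 members were mostly long and had varied functions. *Rptor* (7 of 21) and *Mapkap1* (7 of 16) encode subunits of the mTOR complexes, *Stim1* (6 of 11) the calcium sensor of the endoplasmic reticulum, and *Nfatc2* (6 of 11) a calcium-dependent transcription factor of activated T cells. Transcription factors were also represented by *Sox6* (7 of 17) and *Rora* (6 of 24), and RNA-binding proteins by *Msi2* (6 of 27). With 7 members were further *Enthd1* (of 14), *Lrch1* (of 17), *Hlcs* (of 18), *Snx29* (of 9), *Rapgef2* (of 12), *Slit3* (of 23), *Lpp* (of 22) and *Sdk2* (of 11). *Ubac2* (of 17), *Wdr70* (of 8), *Vwa8* (of 18) and *Rftn1* (of 11), the gene of the lipid raft protein raftlin, were among those with 6. Genes with equal numbers were ordered by the summed -log10 q of their members, and this order decided which genes with 6 were among the first 30. ΔIkE120 peaks were present at each of these 30 genes, from 1 at *Atp8a2* to 26 at *Msi2*. *Nfia*, with 6 members but outside the 30, had 28.

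*Nfatc2* had the strongest single member among these 30 genes. On chromosome 2 from 168472999 to 168473491 a peak with a fold enrichment of 3.91 and a -log10 q of 7.32 lay 42.3 kb from the nearest ΔIkE120 peak. The other 5 members in its window had -log10 q values of 1.55 to 3.88. Matched peaks were found at 5 further places, and ΔIkE120 cells had 6 peaks over the window. Peaks took up 7236 bases of the window in wt cells and 3921 in ΔIkE120 cells.

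Genes with 3 or more members that made up at least 75% of their wt peaks numbered 52. Only the 5559 genes with 3 or more wt peaks could qualify. The group was selected on the share itself. It is not separate from the genes named by count, since *Atp8a2*, *Snx29* and *Wdr70* belong to both. In 34 of the 52 genes every wt peak within 10 kb was wt-only, and in 33 no ΔIkE120 peak was called in the window. *Pik3cd* had the most, with 5 of 5 and none in ΔIkE120 cells. Its members lay on chromosome 4 between 149657779 and 149702920, had -log10 q values of 1.76 to 2.73 and fold enrichments of 2.86 to 3.41, and one of them covered a start. The nearest ΔIkE120 peaks were 34.3 to 79.2 kb from them. *Blk* followed with 4 of 4, on chromosome 14 between 63376750 and 63417417. The member over its start was 1040 bp long with a -log10 q of 7.27, and the others reached 2.57 to 3.70. *Syk*, the kinase that acts beside *Blk* downstream of the B cell receptor, had 3 of 3, the strongest at 4.49, and the nearest ΔIkE120 peak was 53.8 kb away.

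The other genes of this group with 4 of 4 were *Sim2*, *Nr5a1*, a nuclear receptor of steroidogenic tissue, *Rasl12*, *Pgbd5*, a gene derived from a transposase, and *Bmp6*, a secreted ligand of the BMP family. With 3 of 3, blood and immune genes were *Csf2rb2*, a receptor chain for IL-3, *Cebpb*, a transcription factor of myeloid cells, *Alox5ap*, needed for leukotriene synthesis, *Tnfrsf11a*, *Sema4a* and *Sele*, an endothelial adhesion molecule. The ligand *Wnt11*, the ion channels *Kcnh1* and *Ano2*, the adhesion proteins *Parva* and *Layn*, the lipid-related genes *Osbp2*, *Plaat3* and *Slc51b*, the ubiquitin ligase *Mid1* and the gasdermin *Gsdma3* had the same count. So had *Cfap58*, *Nrsn2*, *Aadacl2fm3*, *Fam160a1*, *Rgs22*, *Sptbn5*, *Cdkl4*, *1700011L22Rik*, *7530416G11Rik* and *AI661453*, the last with an unmatched ΔIkE120 peak. *Rasl12* and *Slc51b* are neighbours and share members. Below 100% were *Atp8a2* (8 of 9), *Arhgap29* (4 of 5), *Snx29* (7 of 9), *Wdr70* (6 of 8), *Kirrel3* (6 of 8) and 13 genes with 3 of 4. These were *Ikzf4*, which encodes the Ikaros family member Eos, *Acsf2*, *Fam83a*, *Arhgef11*, *Hsbp1l1*, *Lrrc20*, *Lrrc8a*, *Adgrg3*, *Wdr95*, *Cldn14*, *Trim25*, *Zfp385b* and *Dnajc1*. With 3 to 5 wt peaks at most of these genes, a single further ΔIkE120 call beside a member would have taken most of them out of the group. Merging wt peaks within 1 kb left 1 member at *Gsdma3*, *Sele*, *Aadacl2fm3* and *Fam160a1*. It left 2 at *Syk*, *Cebpb*, *Tnfrsf11a*, *Sema4a*, *Osbp2*, *Kcnh1*, *Ano2*, *Mid1*, *Rgs22*, *Sptbn5*, *Cdkl4* and *AI661453*. The other genes with 3 of 3 kept 3.

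The T lineage transcription factors were rich in wt peaks, and an average share of these were members. All 26 had a wt peak within 10 kb, 16 had a wt-only peak and 5 had 3 or more: *Rora* (6 of 24), *Foxp1* (5 of 24), *Ets1* (3 of 15), *Foxo1* (3 of 10) and *Tcf12* (3 of 12). Of the 214 wt peaks at these genes 33 were wt-only, or 15.4% (10.9% to 21.0%), against 17.2% (16.7% to 17.6%) of the 27364 wt peaks near any protein-coding gene. Counted by gene, 61.5% of the factors had a member and 19.2% had 3 or more, against 27.6% of all protein-coding genes with a wt peak and 1.83% of all protein-coding genes. *Gata3*, *Lef1*, *Runx1*, *Fli1* and *Ikzf1* had 1 member each, and *Bcl11b*, the factor of T lineage commitment, had 2 of 12.

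Genes of the CD3 complex, the pre-TCR and proximal signalling had a lower share per wt peak. A member was found at 11 of 28 genes (39.3%, against 27.6% of all protein-coding genes with a wt peak), and 15 of 173 wt peaks were wt-only (8.67%, 4.93% to 13.9%). *Zap70*, the kinase recruited to phosphorylated CD3 chains, was the gene with 3 (of 7). Its members lay upstream of the gene and in its 3′ part, near an internal start, with -log10 q values of 2.07 to 2.91. Its first start had a peak in both libraries. *Ptprc* had 2 members. At *Cd8a* a member of 245 bp reached a -log10 q of 5.09 with a fold enrichment of only 1.95. Among wt peaks below the median -log10 q, 16.9% were wt-only at the genes of this list, against 26.9% at the T lineage factors and 35.7% near any protein-coding gene.

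Notch pathway genes and cytokine receptors with their STAT factors had the highest shares, with intervals that included the 17.2% of all genes. At 17 Notch genes 15 of 63 wt peaks were wt-only (23.8%, 14% to 36.2%). The coactivators *Maml2* (5 of 11) and *Maml3* (3 of 13) had 3 or more, and *Nrarp*, a target and inhibitor of Notch signalling, had a single wt peak that was wt-only. At 26 genes of cytokine receptors and STAT signalling 28 of 120 wt peaks were wt-only (23.3%, 16.1% to 31.9%), with a member at 16 genes. Of the genes with a wt peak, 50% of the Notch list and 66.7% of the cytokine and STAT list had a member, against 27.6% of all. *Stat4* (3 of 5), *Il6ra* (3 of 5), *Bcl2* (3 of 6), *Jak1* (3 of 10) and *Stat5b* (3 of 13) had 3. In the other direction, 7 of 50 ΔIkE120 peaks were unmatched in wt at the Notch genes and 4 of 91 at the cytokine and STAT genes. Over the whole ΔIkE120 list the share was 8.87%. These counts were 11 of 182 at the T lineage factors and 7 of 160 at the CD3 and pre-TCR list. They were 1 of 80 at genes induced by stimulation and 2 of 62 at chromatin regulators.

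Of 30 genes induced by stimulation, 9 had a member (33.3% of those with a wt peak, against 27.6% of all), and 15 of 93 wt peaks were wt-only (16.1%, 9.32% to 25.2%). Besides *Nfatc2*, the orphan nuclear receptor gene *Nr4a1* had 2 of 5, the stronger with a -log10 q of 5.80, and *Fos*, *Nfkbia*, *Dusp1*, *Tnfaip3*, *Tnf*, *Rel* and *Junb* had 1 each. Chromatin regulators had the lowest share, with 5 of 68 wt peaks (7.35%, 2.43% to 16.3%) at 21 genes, of which 23.8% had a member and none 3 or more. Their wt peaks were the strongest of any list, with a median -log10 q of 10.3 against 3.52 to 4.66 in the other 5 lists. Among wt peaks below the median -log10 q, 4 of 16 were wt-only at these genes (25%). This was above the 16.9% of the CD3 and pre-TCR list and below the 26.9% to 42.9% of the rest. *Tet1*, a 5-methylcytosine dioxygenase, had a single wt peak, wt-only with a -log10 q of 5.53. Across the 6 lists the share of wt-only peaks thus ran from 7.35% to 23.8%. The intervals of 4 lists included the 17.2% of all genes, and those of the CD3 and pre-TCR list and of the chromatin regulators ended below it.

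Members were also found at markers of every group in the check of cell identity. Among 12 B lineage markers, *Pax5* had 1 member, and *Igll1* and *Vpreb1*, the neighbouring genes of the surrogate light chain, shared the same 2, with -log10 q values of 2.02 and 2.13. *Mpo* and *Elane*, genes of granule enzymes, had 2 members each as their whole set of wt peaks, with no ΔIkE120 peak in either window. Of the same 12 myeloid and progenitor markers, *Cebpb* had 3, and *Spi1* and *Itgam* 1 each. Of 15 T precursor markers, members lay at *Bcl11b* (2), *Dntt* (1) and *Gata3* (1). The other groups had them at *Hba-a1* (1) of 7 erythroid, *Zbtb16* (2) of 8 NK and innate lymphoid and *Pdgfra* (2) of 8 stromal markers. For comparison, 17.1% of all protein-coding genes had a member, and 27.6% of those with a wt peak.

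Around the deleted enhancer, the share of members had an interval that included the 19.4% of the whole list. From *Grb10* to *Zpbp* on chromosome 11, 9 of 38 wt peaks were wt-only (23.7%, 11.4% to 40.2%), and 32 peaks were called in ΔIkE120 cells. The wt peak at IkE120, from 11563705 to 11565348, was not among them because a ΔIkE120 peak overlapped it. The deleted bases lie inside this wt peak, so the ΔIkE120 call reflects the sequence beside them. The overlap therefore does not show that acetylation at the site was unchanged. In its browser tracks the paper saw the mark drop near the missing element, and more mildly at the *Ikzf1* promoter. A change in signal was not tested here. Members lay in *Spata48* near an internal start (11489403 to 11489649), outside this gene (11519404 to 11519646), and as a pair in *4930512M02Rik* between 11623883 and 11624601. *Ikzf1* had 1, within the gene body from 11736517 to 11736933, with a -log10 q of 1.54. Beyond the 3′ end of *Ikzf1*, 1 lay from 11785692 to 11785916 and 3 in *Ddc* between 11826130 and 11832837. The strongest of the 9 had a -log10 q of 3.82.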

How the data were processed

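H3K27ac ChIP-seq peak lists of wt and ΔIkE120 P5424 cells (1 library each) were analysed. Submitters' processing notes name Bowtie2 2.3.4.3, Bowtie 1.0.0, deepTools 3.2.1, MACS2 2.1.1 and GRCm38, without roles. The authors deposited a score, a fold enrichment over control as a ratio, a -log10 p and a -log10 q for every peak. The 4C libraries were not used here. Depth is unknown.

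Distances were counted between peak ends. Gene bodies were taken from RefSeq GRCm38.p6. Gene starts came from the RefSeq promoter table for 17492 protein-coding genes and otherwise from the 5′ end of the gene body, with the strand from GENCODE M1. No start was found for 351 genes. Named were the 10 strongest members, 5 peaks on each side of the limit, the 30 genes with most members, genes with 3 or more members making up at least 75% of their wt peaks, list genes with 3 or more, and 5 bins per rule. Genes with equal numbers of members were ordered by the summed -log10 q of the members. Other names were chosen after their values had been seen. Members and gene lists were chosen with earlier results of these data known. The planned sequences of the peaks themselves were not analysed here. Overlap code was checked against an exhaustive search on simulated lists. Alternatives were other flanks, stricter peak lists, merged peaks, and other gene windows, start windows and bins. Python 3.11.15, numpy 2.4.6, pandas 2.3.3 and scipy 1.17.1 were used.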

Additional observations from a re-analysis of the deposited data

How the results depend on the processing

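Of 53 alternative values for the 6 main results, 22 stayed within the 95% interval of the main value, or for counts within 1.5 times of it. All alternatives were planned. No library could be left out and no paired analysis was possible because each genotype had 1 library.

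With a flank of 0 bp, 613 genes had 3 or more members, 6.42% of members lay at starts, 25.7% had a neighbour within 10 kb and the median -log10 q was 2.15. A flank of 10 kb left 4131 members, 191 genes and a neighbour share of 21.4%. With the wt list restricted to peaks at or above its median -log10 q, there were 325 members, 0 genes, 12.3% at starts, 2.46% with a neighbour, a median of 4.77 and at most 4 per bin. With both lists so restricted, the values were 2947 members, 93 genes, 12.7%, 14.9% and 5.03. With equal numbers of top peaks, they were 4124 members, 141 genes, 4.10%, 16.1%, 2.58 and at most 13 per bin. Merging wt peaks within 1 kb lowered the neighbour share to 13.2%. The flanks change the matching distance, and the other settings take away weak peaks or join close ones by construction.

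Windows of 50 kb around gene bodies gave 1295 genes, and a minimum of 5 peaks 85. Starts were near 6.40% of members within 2.5 kb and near 6.52% with the starts of all genes. A neighbour within 50 kb was found for 55.8%, and bins of 2 Mb held at most 33. Members were weak in every setting that kept the whole wt list, with a median -log10 q of at most 2.15. Depth limits all counts, since it is not known how many weak peaks a deeper ΔIkE120 library would have called.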
